A study of Mus musculus with 12 samples.

Results

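The genes described here encode the CD8 coreceptor and the T cell receptor (TCR) complex of cytotoxic T cells: Cd8a and Cd8b1, the CD3 signalling chains Cd3d, Cd3e, Cd3g and Cd247, the TCR constant chains Trac, Trbc1 and Trbc2, and Cd5. They were chosen by name, 10 of the 52636 genes in the count table, and were followed over 4 conditions of GFP and treatment, with the coreceptor genes set against the CD3 and TCR chains. CD8+ tumor-infiltrating lymphocytes were sorted on day 21 from AT3ova tumors, a breast carcinoma line that carries the model antigen ovalbumin, grown under the skin of A2AR eGFP reporter mice. GFP+ and GFP- cells were taken from non-treated mice and from mice given anti-PD-L1, an antibody that blocks the ligand of PD-1, on days 14 and 18, which gave 3 libraries in each of 4 conditions, 12 in all, each pooled from 3 mice.

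Every mouse carried the same transgene, a bacterial artificial chromosome on a C57BL/6 background in which eGFP is read from the regulatory sequences of Adora2a, the gene for the adenosine receptor A2AR, so GFP reports Adora2a activity and not the receptor protein. Adora2a itself had 60.2 to 67.3 CPM (library-size-scaled counts, normalized by TMM) in non-treated GFP+ cells and 19.7 to 24.3 CPM in non-treated GFP- cells, and 66.3 to 111 CPM against 26.0 to 34.6 CPM after anti-PD-L1. The cells were gated on CD8 protein at the surface, which is one of the products measured here as RNA. The 7 CD8 T cell markers, 6 of them genes described here, summed to 3337 to 5471 CPM, and Cd4 did not exceed 0.919 CPM. Libraries held 11292699 to 19023900 counts. KT13 (non-treated GFP+) and KT21 (anti-PD-L1 GFP+) stood apart from the rest, with median Spearman correlations to the other libraries of 0.941 and 0.935 against 0.967 to 0.977 for the other 10. Results are therefore given over all 12 libraries, and the tests also over the 10 without KT13 and KT21, where GFP+ groups have 2 libraries.

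The TCR is an αβ heterodimer that binds peptide and MHC and has almost no cytoplasmic tail of its own. Its signal is carried by the CD3γ, CD3δ and CD3ε chains and by the CD3ζ chain, the product of Cd247, which hold the motifs that the kinases Lck and ZAP-70 act upon. CD8 binds MHC class I beside the TCR and brings Lck to the complex, as a CD8αβ heterodimer on conventional cytotoxic T cells and as a CD8αα homodimer on some innate-like and intestinal lymphocytes. CD5 is a surface receptor that restrains TCR signalling and whose level is known to follow TCR signal strength.

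The genes lie in a few small clusters (GRCm38). Cd8b1 (chr6:71322788-71337494, plus strand) and Cd8a (chr6:71373427-71379173, plus strand) are neighbours with 35932 bases between them. Cd3g (chr9:44969572-44980431, minus strand) and Cd3d (chr9:44981786-44987339, plus strand) are transcribed away from each other across 1354 bases, and Cd3e (chr9:44998740-45009627, minus strand) follows 11400 bases beyond Cd3d. Trbc1 (chr6:41538218-41539881) and Trbc2 (chr6:41546730-41548352) lie on the plus strand of the TCR β locus, 6848 bases apart. Trac is at chr14:54220521-54224206 (plus strand), Cd247 at chr1:165788681-165877277 (plus strand) and Cd5 at chr19:10717116-10739002 (minus strand). Reads were taken from the 3′ ends of transcripts, so a count stands for a whole gene and isoforms were not separated. Cd247 overlaps Pou2f1 on the opposite strand, which had 141 to 679 counts per library against 2800 to 5064 for Cd247, and Cd3e overlaps Gm48719 (0 counts) and Gm48720 (30 counts in all). Whether strand was used in counting is not given in the sources used here.

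Trbc1 and Trbc2 are near-identical copies, and the letters that set them apart decide to which of them a read can be assigned. Over the first 360 bases of the coding constant region they differ at 1 base. The next 120 bases, read from the GENCODE vM21 transcripts, hold 14 differences, shown in capitals.
Trbc1: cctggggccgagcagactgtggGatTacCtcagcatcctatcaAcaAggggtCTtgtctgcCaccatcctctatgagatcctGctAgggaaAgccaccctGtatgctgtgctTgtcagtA
Trbc2: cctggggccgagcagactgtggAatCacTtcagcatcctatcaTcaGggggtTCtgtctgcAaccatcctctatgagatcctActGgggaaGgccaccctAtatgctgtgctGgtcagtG
Of the 663 windows of 75 bases, the read length, along a Trbc1 transcript of 737 bases, 233 (35.1%) also occur in a Trbc2 transcript of 692 bases. The last of these shared windows ends 355 bases before the 3′ end of the Trbc1 transcript and 310 bases before that of Trbc2. How reads that match both genes were counted is not given in the sources used here, so the split between Trbc1 and Trbc2 is uncertain.

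Promoters, from 250 bases before to 50 after the transcription start, were present in the RefSeq table (GRCm38.p6) for 6 of the 10 genes: Cd8a, Cd3d, Cd3e, Cd3g, Cd247 and Cd5. That of Cd8a, the coreceptor gene with an entry, is shown beside those of Cd3d and Cd3e, chains whose values overlapped between GFP+ and GFP- cells. Capitals mark TGNGGT on either strand, the core letters bound by RUNX factors, a family known to act in CD8 T cells.
Cd8a (chr6:71373177-71373476, plus strand): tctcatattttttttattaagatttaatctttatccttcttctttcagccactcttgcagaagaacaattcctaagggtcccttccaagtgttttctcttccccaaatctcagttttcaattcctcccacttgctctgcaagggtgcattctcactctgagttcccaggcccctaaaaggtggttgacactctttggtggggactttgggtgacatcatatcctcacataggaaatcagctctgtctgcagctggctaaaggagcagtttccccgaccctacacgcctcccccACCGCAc
Cd3d (chr9:44981536-44981835, plus strand): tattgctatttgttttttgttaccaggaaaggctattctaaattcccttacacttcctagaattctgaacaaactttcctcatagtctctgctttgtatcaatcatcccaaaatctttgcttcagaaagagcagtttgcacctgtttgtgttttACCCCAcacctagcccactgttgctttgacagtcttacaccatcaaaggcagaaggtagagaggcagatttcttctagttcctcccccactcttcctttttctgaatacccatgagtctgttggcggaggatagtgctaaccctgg
Cd3e (chr9:45009562-45009861, minus strand): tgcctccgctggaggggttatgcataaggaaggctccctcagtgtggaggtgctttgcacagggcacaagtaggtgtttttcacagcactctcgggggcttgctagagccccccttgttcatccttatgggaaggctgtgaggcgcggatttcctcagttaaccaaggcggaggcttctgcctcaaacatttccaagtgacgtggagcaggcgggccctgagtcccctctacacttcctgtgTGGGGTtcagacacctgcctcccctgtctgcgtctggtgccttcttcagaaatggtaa
Each of the 3 held 1 match, as did Cd3g and Cd5, while Cd247 held 2. At least 1 match was held by 45.8% of the 32851 RefSeq promoters, so these letters are common. The E-box CANNTG, searched on both strands and able to share its last letters with TGNGGT, was found in all 6 promoters (3 matches in Cd8a, 1 in Cd3d, 2 in Cd3e, 4 in Cd3g, 2 in Cd247, 2 in Cd5) and in 72.3% of all promoters.

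In non-treated tumors, both coreceptor genes were lower in GFP+ than in GFP- cells, whereas the CD3 and TCR chains mostly overlapped. Cd8a, which encodes the α chain of CD8, had 831, 860 and 799 CPM in the GFP+ libraries KT13, KT15 and KT17 and 1188, 1166 and 1089 CPM in the GFP- libraries KT14, KT16 and KT18. The groups did not overlap, and the highest GFP+ library lay below the lowest GFP- library. Cd8b1, the β chain that pairs with it, had 442, 416 and 378 CPM in GFP+ and 668, 615 and 645 CPM in GFP- cells, again without overlap. The log2 fold change of Cd8a was -0.47 (SE 0.12, 27.7% lower) and that of Cd8b1 was -0.64 (SE 0.16, 35.9% lower).

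Neither gene was called, meaning an adjusted p under 0.05 in edgeR's quasi-likelihood test over all genes tested, across the 12 libraries (adjusted p = 0.460 for Cd8a and 0.405 for Cd8b1), nor did DESeq2 call either (adjusted p = 0.0536 and 0.0681, with 0.374% of all genes called). The edgeR fit called 1 of 14173 genes (0.00706%), and 857 genes had an unadjusted p under 0.05, among them Cd8a and Cd8b1. Over the 10 libraries both were called lower, Cd8a at -0.47 (SE 0.10, adjusted p = 0.0380) and Cd8b1 at -0.69 (SE 0.13, adjusted p = 0.0159), in a fit that called 50 of 14747 genes (0.339%), and DESeq2 called both as well (0.875% of all genes). The fold changes were thus close with and without KT13 and KT21, while the calls differed. In bulk libraries fewer cells of a type and less RNA per cell cannot be told apart.

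**Figure D1:**
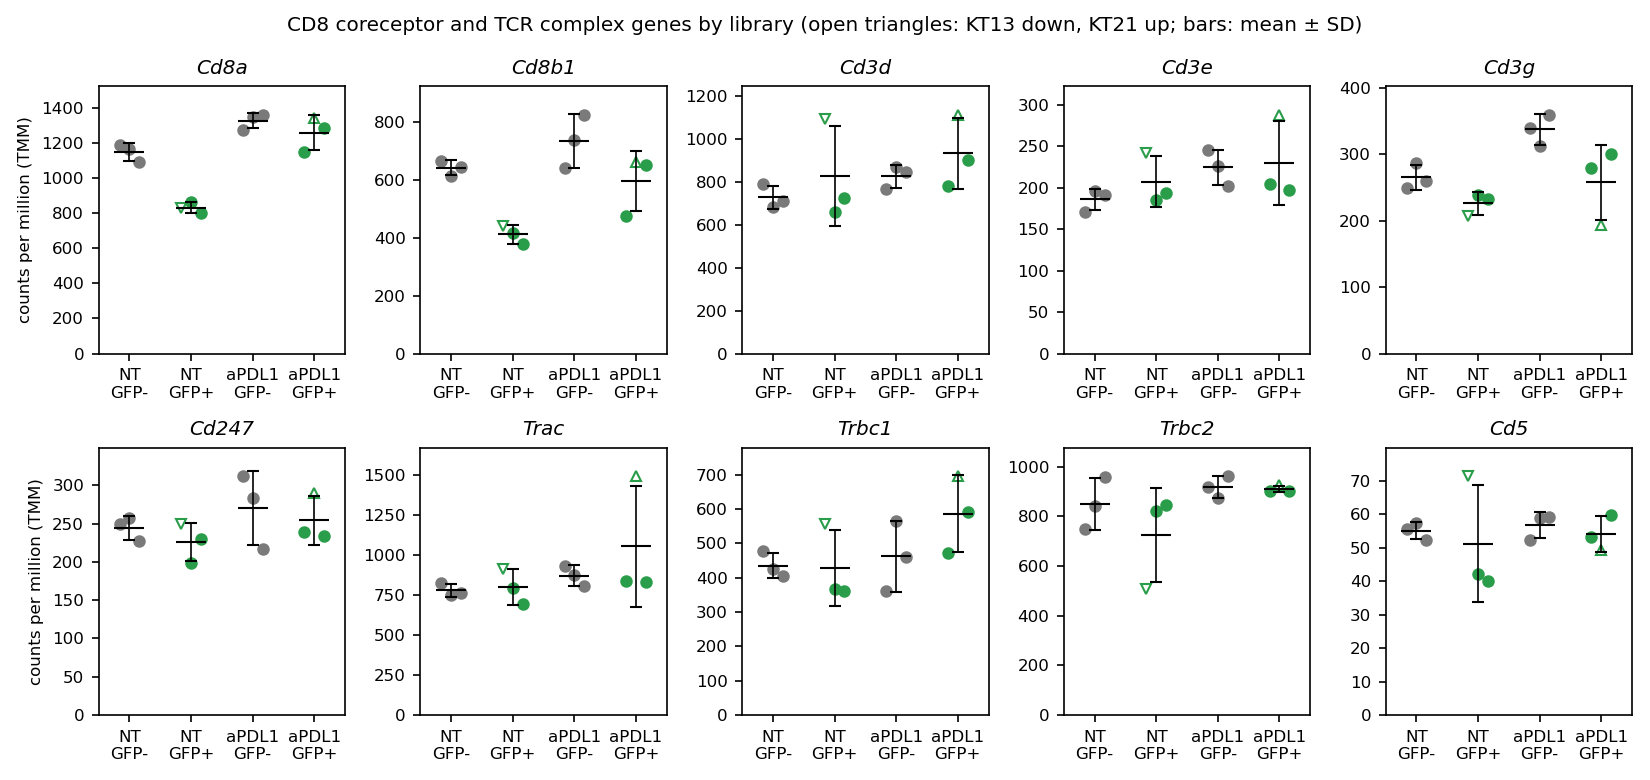
CPM (TMM-scaled counts, linear axes from 0) of the 10 genes in each of the 12 libraries, in grey for GFP- and green for GFP+ cells, non-treated (NT) or after anti-PD-L1 (aPDL1). Bars are mean ± SD of 3 libraries, open triangles are KT13 and KT21. Cd8a of non-treated GFP+ cells lay between 799 and 860 CPM, below every other library, which held at least 1089 CPM.

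Of the CD3 chains of the same libraries, Cd3d, Cd3e and Cd247 overlapped between GFP+ and GFP- cells, and Cd3g did not. Cd3d, the δ chain, had 1093, 662 and 726 CPM in GFP+ cells against 790, 684 and 711 CPM in GFP- cells, and Cd3e, the ε chain shared by both CD3 dimers, had 242, 185 and 194 CPM against 171, 196 and 191 CPM. In both genes the highest value was that of KT13, and the other libraries overlapped. Cd3g, the γ chain, had 207, 240 and 233 CPM in GFP+ cells and 250, 287 and 261 CPM in GFP- cells, which did not overlap, with a log2 fold change of -0.23 (with SE 0.17 and adjusted p = 0.893), and -0.17 (SE 0.11, adjusted p = 0.694) over the 10 libraries. Cd247 had 249, 199 and 230 CPM against 250, 257 and 227 CPM.

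The constant chains of the receptor itself also overlapped. Trac, the α chain constant region, had 912, 796 and 692 CPM in non-treated GFP+ cells and 825, 752 and 761 CPM in GFP- cells, with a log2 fold change of 0.04 (SE 0.20). Trbc1 had 556, 368 and 360 CPM against 476, 424 and 405 CPM, and Trbc2 had 507, 822 and 846 CPM against 751, 840 and 958 CPM. KT13 was the highest library of this comparison for Trbc1 and the lowest for Trbc2. Cd5 had 71.3, 42.0 and 40.1 CPM in GFP+ and 55.5, 57.2 and 52.2 CPM in GFP- cells, so that KT13 lay above and KT15 and KT17 below every GFP- library. Its log2 fold change was -0.11 (SE 0.20, adjusted p = 0.968) over all libraries and -0.42 (SE 0.14, adjusted p = 0.310) over the 10.

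Of the 10 genes, 3 (Cd8a, Cd8b1 and Cd3g) did not overlap between non-treated GFP+ and GFP- libraries, all lower in GFP+, where 12.8% of all genes tested did not overlap in either direction. Over the 10 libraries 5 were lower without overlap (Trbc1 and Cd5 besides), against 12.9% of all genes. The median log2 fold change was -0.55 for the coreceptor genes and -0.02 for the 7 CD3 and TCR chains, beside 0.00 for all genes tested. Over the 10 libraries the medians were -0.58, -0.07 and 0.00, and 6 of the 7 chains were below 0 and 1 above.

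After anti-PD-L1 the coreceptor genes of GFP+ and GFP- cells overlapped. Cd8a had 1149, 1340 and 1283 CPM in the GFP+ libraries KT19, KT21 and KT23 and 1275, 1345 and 1360 CPM in the GFP- libraries KT20, KT22 and KT24, so that its log2 fold change was -0.08 (SE 0.12, adjusted p = 0.993), and -0.13 (SE 0.10, adjusted p = 1) over the 10. Cd8b1 had 477, 662 and 651 CPM in GFP+ and 642, 738 and 827 CPM in GFP- cells, so that its log2 fold change was -0.30 (SE 0.16, adjusted p = 0.993) over all libraries and -0.38 (SE 0.13, adjusted p = 0.521) over the 10. KT19 held the lowest Cd8a and the lowest Cd8b1 of the treated libraries.

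Among the CD3 chains, Cd3g was the gene without overlap after anti-PD-L1, with 279, 194 and 300 CPM in GFP+ and 340, 313 and 360 CPM in GFP- cells. Its log2 fold change was -0.39 (SE 0.17, adjusted p = 0.993), and -0.22 (SE 0.11, adjusted p = 0.969) without KT21, its lowest library, and KT13. Cd3d had 784, 1114 and 902 CPM against 766, 870 and 845 CPM, Cd3e 204, 288 and 198 CPM against 245, 227 and 203 CPM, and Cd247 239, 291 and 233 CPM against 312, 283 and 218 CPM. In Cd3d and Cd3e the highest library was KT21.

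KT21 also decided the sign for Trac, which had 839, 1492 and 829 CPM in treated GFP+ and 931, 877 and 805 CPM in treated GFP- cells, and its log2 fold change of 0.27 (SE 0.20) became -0.06 (SE 0.10) over the 10 libraries. Trbc1 had 471, 696 and 592 CPM against 361, 566 and 459 CPM, and Trbc2 900, 925 and 904 CPM against 917, 873 and 962 CPM, both overlapping. Cd5 had 53.2, 49.3 and 59.8 CPM against 52.2, 58.7 and 59.0 CPM. None of the 10 genes was called over the 12 libraries, where 4 genes (0.0282%) were called and 578 had an unadjusted p under 0.05 (1 of the 10, Cd3g). None was called over the 10 libraries, where 25 (0.17%) were called and 788 had an unadjusted p under 0.05 (1 of the 10, Cd8b1), and none by DESeq2 over the 12 (0.268% of all genes) or the 10 (0.414%). Without overlap were 1 of 10 genes, against 10.6% of all genes.

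**Figure D2:**
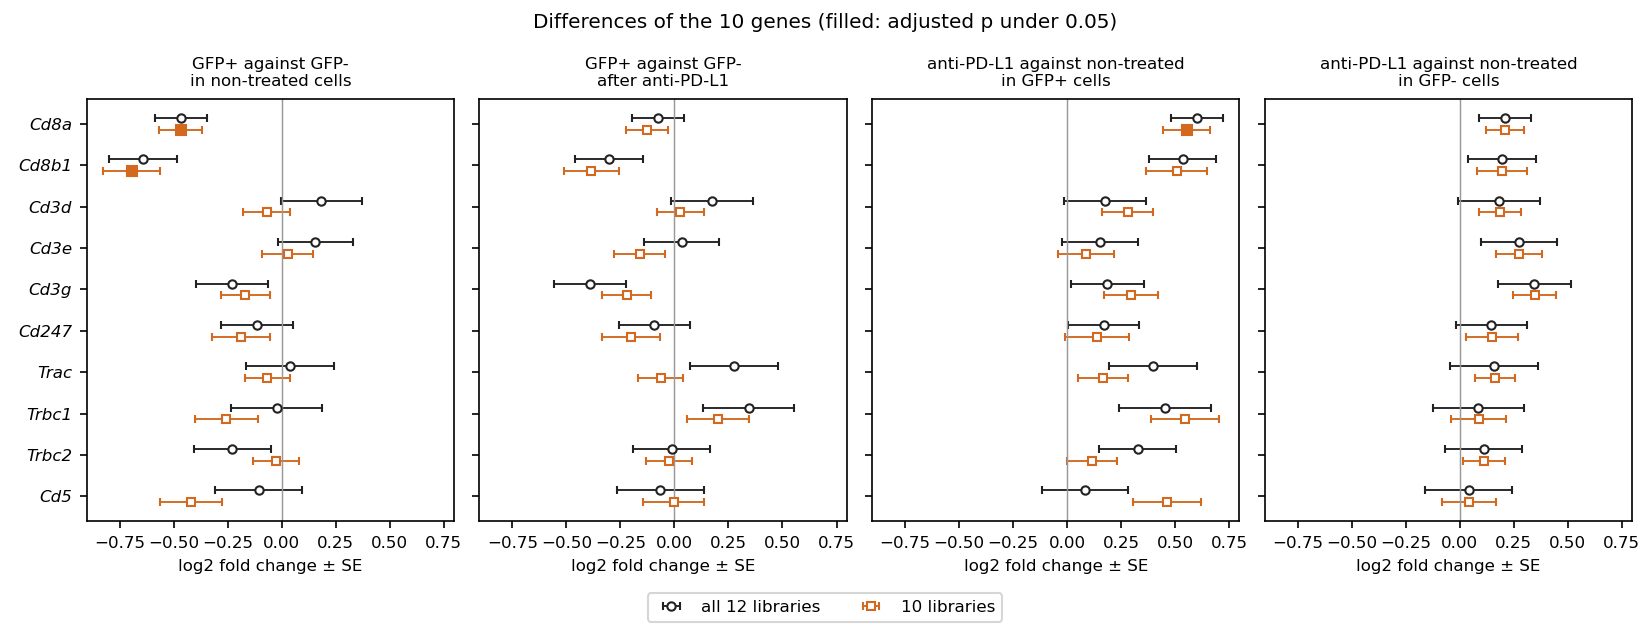
Log2 fold change ± SE (horizontal axis) of the 10 genes in the 4 comparisons, over all 12 libraries (black circles) and over the 10 without KT13 and KT21 (orange squares). Filled symbols passed an adjusted p of 0.05, which were Cd8a and Cd8b1 between non-treated GFP+ and GFP- cells and Cd8a after anti-PD-L1 in GFP+ cells, each over the 10 libraries.

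Anti-PD-L1 was then compared with no treatment within each GFP group, comparisons that use the same libraries as those above. In GFP+ cells Cd8a lay at 799 to 860 CPM without and 1149 to 1340 CPM with anti-PD-L1, a log2 fold change of 0.60 (SE 0.12, 1.52-fold) with no overlap, and Cd8b1 at 378 to 442 and 477 to 662 CPM, a log2 fold change of 0.53 (SE 0.16, 1.45-fold), also with no overlap. Across the 12 libraries the adjusted p was 0.0946 for Cd8a and 0.406 for Cd8b1, with 2 of all genes (0.0141%) called and none of the 10, of which these 2 had an unadjusted p under 0.05. Cd8a was called higher over the 10 libraries (log2 fold change 0.55, SE 0.11, adjusted p = 0.0103), where 83 genes (0.563%) were called, and Cd8b1 was not (0.51, SE 0.14, adjusted p = 0.139). With DESeq2 over the 12 libraries Cd8a was called as well (adjusted p = 0.00134, 0.628% of all genes called), as it was over the 10 (0.915%).

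All 10 genes had a positive log2 fold change with anti-PD-L1 in GFP+ cells, and 3 (Cd8a, Cd8b1 and Trbc2) did not overlap, beside 10.3% of all genes in either direction. Single libraries turned some of these signs: Cd3e was at -0.04 without KT21, and Cd5 at -0.04 without KT15 and -0.06 without KT17. The 7 CD3 and TCR chains had a median of 0.19 against -0.01 for all genes, and the coreceptor genes a median of 0.57. Trbc1 had the largest value of the 7, 0.45 (SE 0.21, adjusted p = 0.739), and Cd3e the smallest, 0.15 (SE 0.17, adjusted p = 0.980). Over the 10 libraries, with 2 libraries on each side, all 10 genes were higher without overlap, where 19.5% of all genes were, and Cd5 moved from 0.08 (SE 0.20) to 0.46 (SE 0.16, adjusted p = 0.313).

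In GFP- cells the coreceptor genes were also above 0. Cd8a lay at 1089 to 1188 CPM without and 1275 to 1360 CPM with anti-PD-L1, without overlap, at a log2 fold change of 0.21 (with SE 0.12 and adjusted p = 1), and Cd8b1 at 615 to 668 and 642 to 827 CPM, with overlap, at 0.19 (SE 0.16, adjusted p = 1). Without KT13 and KT21 they were at 0.21 (SE 0.09, adjusted p = 0.604) and 0.20 (SE 0.11, adjusted p = 0.785). Cd3g, which had the highest value of the 10 genes, had a log2 fold change of 0.35 (with SE 0.17 and adjusted p = 1), with values of 250, 287 and 261 CPM before and 340, 313 and 360 CPM after treatment. All 10 genes were again above 0, except that Trbc1 was at -0.09 without KT22, with medians of 0.20 for the coreceptor genes, 0.16 for the 7 chains and -0.01 for all genes. Of the 10 genes 3 (Cd8a, Cd3e and Cd3g) did not overlap, beside 12.3% of all genes. No gene at all was called by edgeR over the 12 libraries (0.0%, with 487 at an unadjusted p under 0.05, none of them among the 10, and 33, or 0.233%, called by DESeq2), and over the 10 libraries 55 (0.373%) were called, none of them among the 10 (3 had an unadjusted p under 0.05). DESeq2 over the 10 libraries called Cd3g higher (0.34, adjusted p = 0.0343), in a fit that called 28 genes higher and 63 lower (0.617%).

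Whether the effect of treatment differed between GFP+ and GFP- cells was tested as an interaction. It was 0.39 (SE 0.17, adjusted p = 1, unadjusted p = 0.0377) for Cd8a and 0.34 (SE 0.22, adjusted p = 1) for Cd8b1, and lay between -0.16 (Cd3g) and 0.37 (Trbc1) for the 7 CD3 and TCR chains. Without KT13 and KT21 it was 0.34 (SE 0.14) for Cd8a, 0.31 (SE 0.18) for Cd8b1, 0.46 (SE 0.20) for Trbc1 and 0.42 (SE 0.20) for Cd5, each with an adjusted p of 1. No gene was called by edgeR (0.0% over the 12 libraries and 0.0% over the 10, with 295 and 632 genes at an unadjusted p under 0.05, among them 1 and 3 of the 10) or by DESeq2 (0 over the 12 and 0 over the 10). A difference in the treatment effect on the coreceptor between GFP groups was therefore not shown.

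Averaged over treatments, GFP+ cells had a log2 fold change of -0.47 (with SE 0.11 and adjusted p = 0.124) for Cd8b1 and -0.27 (SE 0.09, adjusted p = 0.350) for Cd8a over the 12 libraries, with none of the 10 genes among the 44 (0.31%) called by edgeR and 3 at an unadjusted p under 0.05 (Cd8a, Cd8b1 and Cd3g). Over the 10 libraries both were called lower, Cd8b1 at -0.54 (SE 0.09, adjusted p = 0.00209) and Cd8a at -0.30 (SE 0.07, adjusted p = 0.0333), 2 of the 10 genes beside 159 of all (1.08%). DESeq2 called Cd8b1 over the 12 libraries (adjusted p = 0.0210, 1.11% of all genes called) and both over the 10 (1.74%). Of the chains, Cd3d (0.18), Cd3e (0.09), Trac (0.16) and Trbc1 (0.16) were above 0 over the 12 libraries and at -0.02, -0.07, -0.07 and -0.03 over the 10, none of them called. Averaged over GFP, treatment had a log2 fold change of 0.40 (with SE 0.09 and adjusted p = 0.0667) for Cd8a, and none of the 10 was among the 56 genes (0.395%) called by edgeR, with the same 3 at an unadjusted p under 0.05. DESeq2 called Cd8a (adjusted p = 0.000711, 1.27% of all genes called) and, over the 10 libraries, Cd8a, Cd8b1 and Cd3g (2.04%). Over the 10 libraries Cd8a (0.38, SE 0.07, adjusted p = 0.00301) and Cd3g (0.32, SE 0.08, adjusted p = 0.0428) were called higher, beside 201 of all genes (1.36%), and Cd8b1 was at 0.35 (SE 0.09, adjusted p = 0.0532).

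The coreceptor was next set against the CD3 and TCR chains of the same library, as the mean log2(CPM + 0.5) of Cd8a and Cd8b1 minus that of the 7 chains. This ratio hardly depends on library scaling, and it is described here without a test. It was 0.44, 0.61 and 0.46 in the non-treated GFP+ libraries KT13, KT15 and KT17 and 1.07, 0.98 and 0.99 in the GFP- libraries KT14, KT16 and KT18, a mean of 0.51 ± 0.09 against 1.01 ± 0.05 (SD, n = 3). The groups did not overlap, and without KT13 and KT21 the difference was -0.48 in place of -0.51. After anti-PD-L1 the ratio was 0.71, 0.75 and 0.94 in GFP+ (0.80 ± 0.12) and 0.90, 1.0 and 1.18 in GFP- libraries (1.03 ± 0.14), which overlapped, at a difference of -0.23 (-0.20 over the 10 libraries). Treatment came with a ratio higher by 0.30 in GFP+ cells (0.29 over the 10), without overlap, and by 0.02 in GFP- cells, with overlap.

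**Figure D3:**
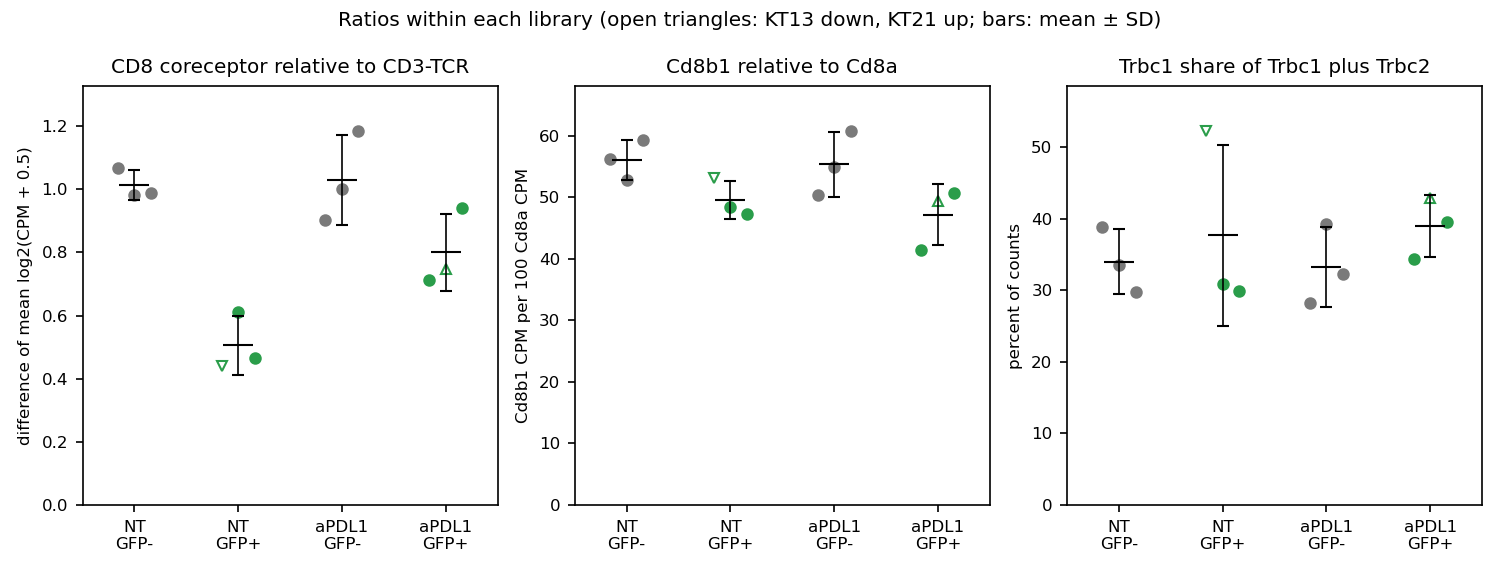
Ratios within each library: the mean log2(CPM + 0.5) of Cd8a and Cd8b1 minus that of the 7 CD3 and TCR chains (left), Cd8b1 CPM per 100 Cd8a CPM (middle) and the percent of Trbc1 plus Trbc2 counts that fell on Trbc1 (right), for GFP- (grey) and GFP+ (green) libraries. Bars are mean ± SD of 3 libraries, open triangles are KT13 and KT21. Non-treated GFP+ libraries sit at 0.44 to 0.61 on the left, below the remaining 9, which start at 0.71.

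Within the coreceptor, Cd8b1 per 100 Cd8a CPM was 53.2, 48.4 and 47.4 in non-treated GFP+ and 56.2, 52.8 and 59.2 in non-treated GFP- libraries, with KT13 inside the GFP- range and KT15 and KT17 below it. After anti-PD-L1 it was 41.5, 49.4 and 50.8 in GFP+ and 50.3, 54.9 and 60.8 in GFP- libraries. The α to β balance thus overlapped in both treatments over the 12 libraries. Cd3g per 100 Cd3d CPM was 18.9 in KT13 and 17.4 in KT21 and 31.7 to 44.4 in the other 10 libraries, so the 2 libraries shared a low Cd3g beside a high Cd3d. The Trbc1 share of the 2 β constant genes was 52.3% in KT13, 42.9% in KT21 and 28.2% to 39.6% in the rest.

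Over all 12 libraries Cd8a and Cd8b1 had a Pearson r of 0.91 in log2(CPM + 0.5), and 0.91 over the 10, while Cd8a with Trac had 0.40 and 0.69 and Cd8a with Cd5 0.34 and 0.95. Of the CD3 and TCR chains, Cd3g had the highest r with Cd8a over the 10 libraries (0.84, and 0.56 over the 12). Trbc2 had the lowest (0.36, and 0.58 over the 12). These correlations describe 12 libraries that fall into 4 conditions. The genes most like Cd8a were Ctla2a (r = 0.95), Icos (0.95) and Entpd1 (0.94), with 0.94, 0.95 and 0.94 over the 10 libraries. Those most like Cd8b1 were Ly6a (0.97), S100a4 (0.96) and Ctla2a (0.94), with 0.98, 0.96 and 0.95 over the 10. For Cd3e they were mt-Tm (0.94), Os9 (0.93) and Helb (0.93), with 0.89, 0.83 and 0.81 over the 10, and for Trac Pkm (0.96), Asna1 (0.94) and Ywhah (0.94), with 0.75, 0.70 and 0.75 over the 10.

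Of 25 further genes of the TCR complex and its first signalling steps, 23 passed the filter on low counts over the 12 libraries. Cd4 (at most 0.919 CPM, 0 in every anti-PD-L1 GFP- library) and Ptcra (at most 0.851 CPM) did not, and Trat1, which did, had 0 counts in 8 of 12 libraries and is given no fold change. None was called by edgeR over the 12 libraries in any of the 7 comparisons, with 0 to 6 of them at an unadjusted p under 0.05. DESeq2 called 1 lower in each average (over treatments and over GFP), where it called 1.11% and 1.27% of all genes. In non-treated cells 7 of the 23 were above 0 and 16 below in GFP+ cells, with a median log2 fold change of -0.15. Lat, the adaptor that ZAP-70 phosphorylates, had 145 to 175 CPM in non-treated GFP+ and 212 to 234 CPM in GFP- cells (log2 fold change -0.50, SE 0.16, adjusted p = 0.596), and was called lower over the 10 libraries (-0.57, SE 0.12, adjusted p = 0.0345). It was the 1 gene of the list that edgeR called there (0.339% of all genes called), where DESeq2 over the 10 libraries called 3 lower (0.875%).

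Averaged over treatments and over the 10 libraries, 3 of the 23 were called lower in GFP+ cells and none higher: Lat (-0.51, SE 0.08, adjusted p = 0.00142), Thy1 (-0.37, SE 0.07, adjusted p = 0.00643) and Sit1 (-0.66, SE 0.15, adjusted p = 0.0335), a membrane adaptor that dampens TCR signals. Of all genes, 68 were called higher and 91 lower in this fit (1.08%). DESeq2 over the 10 libraries called 4 lower (1.74% of all genes called). Thy1, a surface glycoprotein of T cells, had 738 to 807 CPM in non-treated GFP+ and 999 to 1059 CPM in non-treated GFP- libraries. After anti-PD-L1 Thy1 overlapped, with 880 to 1218 CPM in GFP+ and 1044 to 1197 CPM in GFP- libraries. The log2 fold changes of Lat, Thy1 and Sit1 over the 12 libraries were -0.39, -0.28 and -0.62, with an adjusted p of 0.269, 0.491 and 0.159. Averaged over GFP, Tespa1, which takes part in TCR-driven calcium signalling, was called lower after anti-PD-L1 over the 10 libraries (-0.54, SE 0.12, adjusted p = 0.0204, 1.36% of all genes called) and was at -0.58 (SE 0.14, adjusted p = 0.114) over the 12. It had 53.0 to 54.0 CPM in GFP- cells before and 32.9 to 42.7 CPM after treatment.

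In the other comparisons edgeR called none of these genes in either set of libraries, and DESeq2 over the 10 called 2 lower in GFP+ cells after anti-PD-L1 (0.414% of all genes called) and 0 in the rest. Between GFP+ and GFP- cells after anti-PD-L1 the extremes over the 12 libraries were Cd27 (0.43, SE 0.17) and Zap70 (0.36, SE 0.21) above and Sit1 (-0.69, SE 0.22) below 0, each with an adjusted p of at least 0.822. With anti-PD-L1 in GFP+ cells Cd27 (0.55, SE 0.17) and Themis (0.49, SE 0.19) were highest and Tespa1 (-0.64, SE 0.19) and Sit1 (-0.17, SE 0.22) lowest, with an adjusted p of at least 0.426. In GFP- cells Lax1 (0.40, SE 0.42) and Themis (0.24, SE 0.18) were highest and Tespa1 (-0.52, SE 0.19) and Ptprc (-0.10, SE 0.15) lowest, each with an adjusted p of 1. For the interaction Cd27 (0.49, SE 0.24) and Ubash3a (0.35, SE 0.35) were highest and Lax1 (-0.49, SE 0.59) and Sit1 (-0.14, SE 0.30) lowest, again with an adjusted p of 1.

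Markers of other cell types were summed per library, since a sorted fraction can hold other cells. All 6 NK cell markers were detected, and their sum was 313 to 380 CPM in non-treated GFP+ against 235 to 299 CPM in GFP- cells and 304 to 403 against 251 to 314 CPM after anti-PD-L1. Klrb1c, which encodes NK1.1, had 47.0 to 51.3 CPM in non-treated GFP+ and 15.4 to 30.3 CPM in GFP- cells. Fcer1g (112 to 143 against 68.2 to 75.2 CPM) and Tyrobp (21.8 to 24.9 against 17.9 to 21.3 CPM) were higher there too, without overlap. Ncr1, a defining NK receptor, overlapped (3.29 to 6.65 against 3.65 to 5.84 CPM). So did Klre1 (72.1 to 130 against 92.9 to 141 CPM) and Eomes (26.5 to 39.3 against 28.0 to 34.5 CPM). All 10 macrophage markers were detected, with sums of 206 to 283 CPM in non-treated GFP+, 153 to 225 CPM in non-treated GFP-, 84.6 to 168 CPM in treated GFP+ and 77.1 to 134 CPM in treated GFP- cells.

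B cell markers (6 of 6 detected) summed to 146 to 173 CPM in non-treated GFP+ and 101 to 112 CPM in GFP- cells and to 97.5 to 133 against 72.9 to 86.8 CPM after treatment, nearly all of it Ighm. Dendritic cell markers (8 of 8) summed to 87.9 to 124 CPM in non-treated GFP+, 57.8 to 86.0 CPM in GFP-, 49.5 to 81.7 CPM in treated GFP+ and 49.3 to 64.4 CPM in treated GFP- cells, mostly the MHC class II gene H2-Ab1 (65.9 to 97.3 CPM in non-treated GFP+ and 44.9 to 68.9 CPM in GFP- cells). Zbtb46 had 0.996 to 2.94 against 0 to 0.919 CPM there, while Xcr1 and Clec9a did not exceed 0.253 and 0.609 CPM. Tumor epithelium markers (5 of 5, mostly Cdh1) were at 209.9 to 304 CPM in non-treated GFP+, 232 to 325 CPM in non-treated GFP-, 135 to 198 CPM in treated GFP+ and 201 to 303 CPM in treated GFP- cells. Stroma markers (5 of 5) were at 32.4 to 71.4, 19.2 to 46.9, 10.4 to 23.6 and 9.55 to 22.9 CPM in the same order. CD4 T cell markers (3 of 3, mostly Foxp3) were at 7.41 to 26.1 CPM and neutrophil markers (5 of 5) at 0 to 3.37 CPM. NK, B and dendritic cell sums were thus higher in the non-treated GFP+ libraries, the group with the lowest coreceptor. The macrophage, dendritic cell, B cell, tumor epithelium and stroma sums were lower without overlap after anti-PD-L1 in GFP+ cells, where Cd8a was higher. In GFP- cells the macrophage and B cell sums were also lower without overlap after anti-PD-L1, and the dendritic cell, tumor epithelium and stroma sums overlapped. For treatment in GFP- cells Cd8a had a log2 fold change of 0.21, and the coreceptor ratio differed by 0.02. The part of these marker sums in the coreceptor result was not tested.

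**Figure D4:**
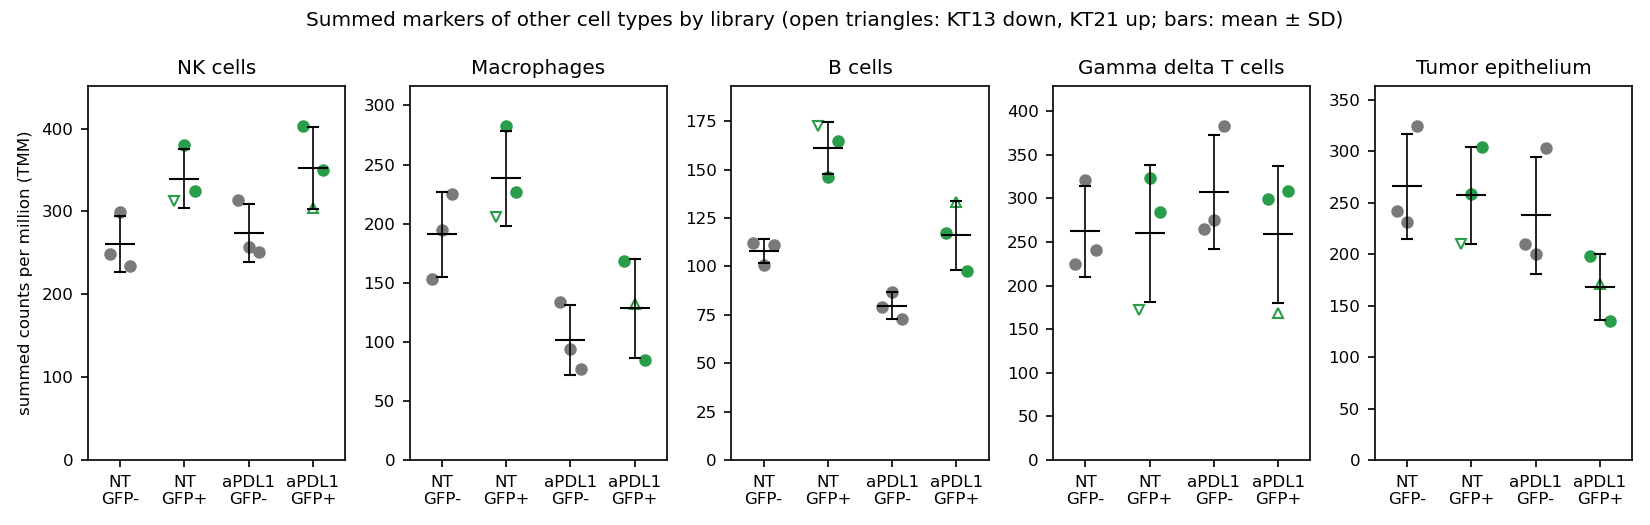
Summed CPM of markers of 5 other cell types (NK cells, macrophages, B cells, γδ T cells and tumor epithelium) in each library, in grey for GFP- and green for GFP+ cells, non-treated (NT) or after anti-PD-L1 (aPDL1), linear axes from 0. Bars are mean ± SD of 3 libraries, open triangles are KT13 and KT21. NK cell sums of non-treated GFP+ libraries (313 to 380 CPM) lay above those of non-treated GFP- libraries (235 to 299 CPM).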

How the data were processed

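QuantSeq 3′ mRNA libraries of 12 sorted samples were sequenced by the authors as 75 bp single-end reads, trimmed with Cutadapt, aligned to mm10 with HISAT2 and counted per gene with featureCounts. The deposited values are raw counts per Ensembl gene. The processing notes give Cutadapt 1.7 and Subread 1.6.4, and the methods name other versions. Strand setting and treatment of multi-mapping reads are not given in the sources used here.

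Identifiers were matched to GENCODE vM21 (52403 of 52636). Counts were tested with edgeR 4.0.16 (quasi-likelihood F test, TMM scaling, filterByExpr, 1 model over the 4 groups, Benjamini-Hochberg over all genes tested, 14173 genes over 12 libraries and 14747 over 10), run in R 4.3.3. CPM are TMM-scaled. DESeq2 1.42.0 was an alternative, beside upper-quartile and RLE scaling, other filters (at least 10 counts in every library, or none beyond 1 count), fits of only the groups compared, and each library left out in turn. The code was tested on simulated data. Each library was a pool of 3 mice, and p-values measure the spread between these libraries. No 2 libraries of a condition agreed within sampling noise (lowest chi-square per degree of freedom 9.65 over 12 pairs). With 3 against 3 libraries an exact permutation test cannot go below p = 0.1, so none is given.

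The members, lists and the pair of libraries left out were chosen with earlier results of these data known. All 10 members are named. Of the 25 other TCR complex genes those called over 12 or 10 libraries are named, otherwise the 2 highest and 2 lowest, and some values of these lists are not reported here. Genes with like patterns are the 3 with the highest Pearson r. DESeq2 over 10 libraries was added once the values were known. Each member held 604 to 22975 counts in a library.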

Additional observations from a re-analysis of the deposited data

How the results depend on the processing

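The largest shift of the median log2 fold change of all genes under another scaling was 0.03. The log2 fold changes of Cd8a and Cd8b1 kept their direction in each of the 4 comparisons between groups under every alternative run. Calls depended on the libraries and the tool. In place of 0 of the 10 genes, leaving out KT13 and KT21 called 2 between non-treated GFP+ and GFP- cells, 1 for treatment in GFP+ cells, 2 for GFP averaged over treatments and 2 for treatment averaged over GFP. Of all 14747 genes that fit called 50, 83, 159 and 201 in the same order (0.339%, 0.563%, 1.08% and 1.36%). DESeq2 over 12 libraries called 1 for treatment in GFP+ cells and 1 in each average, DESeq2 over the 10 libraries (a fit added once the values were known) called 2, 1, 2 and 3 in the same order (of all genes 47 higher and 82 lower, 71 and 64, 104 and 152, and 140 and 161) and 1 (Cd3g) for treatment in GFP- cells (28 and 63), and keeping every gene with at least 1 count called 1 (Cd8b1) for GFP averaged over treatments. Leaving out single libraries called 0 to 1 for treatment averaged over GFP (Cd8a, without KT21, adjusted p = 0.0435) and 0 in the other 6 comparisons. For these fits, and for the one that kept every gene with at least 1 count, calls over all genes are not reported here. Over all genes DESeq2 called more than edgeR did in each comparison but the interaction: 26 higher and 27 lower against 1 and 0 between non-treated GFP+ and GFP- cells, 26 and 12 against 4 and 0 after anti-PD-L1, 35 and 54 against 2 and 0 for treatment in GFP+ cells, 5 and 28 against 0 and 0 in GFP- cells, 88 and 70 against 21 and 23 for averaged GFP, and 64 and 116 against 13 and 43 for averaged treatment.

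The coreceptor ratio between non-treated GFP+ and GFP- cells was -0.42 with Cd8a alone, against -0.51. For treatment in GFP- cells the ratio of 0.02 became -0.068 with Cd3d, Cd3e and Cd3g alone, and -0.061 (without KT24) to 0.079 with single libraries left out.

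Signs also reversed for some genes that were not called. Between non-treated GFP+ and GFP- cells Cd3d became -0.069 and Trac -0.067 over the 10 libraries by edgeR, and -0.067 and -0.065 by DESeq2, and Trbc1 became 0.0098 with upper-quartile scaling. With single libraries left out these ran from -0.069 to 0.32 (Cd3d), -0.068 to 0.13 (Trac), -0.26 to 0.085 (Trbc1) and -0.42 to 0.039 (Cd5), each lowest without KT13. Between GFP+ and GFP- cells after anti-PD-L1 Cd3e became -0.16 (edgeR) and -0.17 (DESeq2) and Trac -0.063 and -0.068 over the 10 libraries, and Trbc2 became 0.016 with upper-quartile scaling, 0.00127 with RLE scaling or DESeq2 and 0.00468 with at least 10 counts in every library. With single libraries left out these ran from -0.16 to 0.16 (Cd3e), -0.064 to 0.45 (Trac), -0.026 to 0.038 (Trbc2) and -0.21 to 0.042 (Cd247), with the lowest Cd3e and Trac without KT21. For treatment, Cd3e ran from -0.039 to 0.28 and Cd5 from -0.062 to 0.40 in GFP+ cells and Trbc1 from -0.087 to 0.24 in GFP- cells. The cause was not tested. No paired analysis was run. Each library has its own replicate number, and whether a GFP+ and a GFP- library came from the same mice is not given in the sources used here.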

Other observations

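The γδ chain genes were present in these CD8+ fractions. Tcrg-C2 had 124 to 182 CPM in non-treated GFP-, 82.2 to 167 CPM in non-treated GFP+, 155 to 249.5 CPM in treated GFP- and 68.1 to 182 CPM in treated GFP+ libraries. Tcrg-C1 ranged from 37.8 to 93.2 CPM, Tcrg-C4 from 31.3 to 67.7 CPM and Tcrg-C3 from 0.454 to 3.99 CPM. Trdc, the δ constant chain that a γδ TCR needs, had 7.37 to 10.1 CPM in non-treated GFP+ and 2.95 to 3.5 CPM in non-treated GFP- cells, and 3.04 to 8.27 against 3.02 to 7.13 CPM after anti-PD-L1. Cd163l1, another γδ T cell marker, went the other way, with 1.34 to 2.22 CPM in non-treated GFP+ and 5.88 to 8.51 CPM in non-treated GFP- cells, and 1.67 to 3.92 against 4.56 to 5.66 CPM after anti-PD-L1. Sox13, a γδ lineage factor, did not exceed 0.355 CPM. The summed γδ T cell markers (6 in the table) were 172 to 323 CPM in non-treated GFP+, 225 to 322 CPM in non-treated GFP-, 169 to 309 CPM in treated GFP+ and 265 to 383 CPM in treated GFP- cells, with KT13 and KT21 the lowest of the GFP+ libraries.

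Variable and joining segments gave few reads in these libraries, where reads were taken from 3′ ends. The cause of the low counts was not tested. Over all libraries the 128 Trav genes summed to 7.20 to 21.9 CPM, the 60 Traj genes to 24.3 to 59.0 CPM, the 35 Trbv genes to 0.633 to 3.85 CPM and the 14 Trbj genes to at most 0.567 CPM. Most of the Traj sum was Traj18, the joining segment used by invariant NKT cells, with 36.8 to 46.0 CPM in non-treated GFP-, 29.6 to 35.5 CPM in non-treated GFP+, 20.2 to 28.9 CPM in treated GFP- and 18.0 to 33.3 CPM in treated GFP+ libraries. These reads show transcription of the segment and not a rearranged chain. Trgv2 (0.760 to 7.13 CPM) and Traj49 (2.22 to 7.25 CPM) followed. Trav6-6 and Trav6d-6, picked out after their values were seen, held the same count in each of the 12 libraries (305 in all), and other duplicated Trav genes did likewise (Trav11 and Trav11d, 54 in all). The Trav sums hold the counts of both copies.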
